A study of Homo sapiens with 12 samples.

Results

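In HK2 cells, 9 genes that TNF-α raised stood higher still when propionate or butyrate was present: CCL20, CD83, NR4A3, SLC7A5, GFPT2, KIF21B, MAMLD1, SDC4 and TNFRSF9. They were picked by symbol from the 58278 listed genes because they were above untreated cells with TNF-α alone and above TNF-α alone with the short-chain fatty acids (SCFAs). Those differences are therefore given as a description, without a test. All 9 passed the filter on low counts that kept 24342 genes. The tests below concern differences that the choice did not name, between propionate and butyrate and between SCFA given before and after TNF-α. The choice did use the levels of the same libraries. Genes high in only some SCFA groups were less likely to be picked, so these tests are not independent of the choice.

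HK2 is an immortalized human proximal tubular epithelial cell line. Cells were untreated (Ctrl) or received TNF-α at 5 ng/mL for 3 h without SCFA (TN). In the other 4 groups the same TNF-α dose was combined with 24 h of SCFA. Propionate at 15 mM or butyrate at 3 mM was given before TNF-α in PRTN and BUTN, and after it in TNPR and TNBU. Each group had 2 biological replicates, all from this single line, which gave 12 libraries. A common protocol note in the deposited labels names thapsigargin and JQ1, which do not appear in the label of any library, and the library labels were followed. Cells given SCFA without TNF-α, and cells kept for as long as TNPR and TNBU without SCFA, were not among the 12 libraries.

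TNF-α, bound to its receptors, frees NF-κB dimers to enter the nucleus and start a fast programme of chemokines, adhesion molecules, survival genes and the inhibitors that end the response. Propionate and butyrate are products of gut bacteria that inhibit histone deacetylases at millimolar doses and so change the transcription of many genes at once. Of the genes described here, CCL20 encodes a chemokine, TNFRSF9 a costimulatory receptor of the TNF receptor family and CD83 a membrane glycoprotein of activated immune cells. SDC4 encodes the heparan sulfate proteoglycan syndecan-4, SLC7A5 the light chain of a large neutral amino acid transporter and GFPT2 an enzyme of the first step of hexosamine synthesis. NR4A3 is an orphan nuclear receptor, KIF21B a kinesin motor and MAMLD1 a mastermind-like nuclear protein.

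Libraries held 27269986 to 33851130 expected counts, so that 3 counts stood at 0.0867 to 0.112 CPM, the expected counts scaled to library size with TMM factors. The replicates of TNPR and TNBU differed by a median of 0.202 and 0.232 on the log2 scale per gene, more than those of the other groups, at 0.116 to 0.153. Of 16 kidney epithelial markers, KRT8, KRT18 and PAX8 were expressed in every library, whereas LRP2 had 0 counts in Ctrl and TN and SLC34A1 never exceeded 3 counts. RNA came from whole cultures, in which fewer cells of a type and less RNA per cell cannot be told apart.

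Sequence upstream of the start sites of the 9 genes was examined as a description, since the choice of the genes fixed their shared pattern. RefSeq promoters (GRCh38.p14) were found for 8 of the 9 genes, in 10 entries, and KIF21B had none. The NF-κB consensus motif was searched on both strands in the 250 bases before the start. It was present for 5 of these 8 genes, CCL20, TNFRSF9, SDC4, CD83 and GFPT2, or 5 of their 10 entries, and in 9.96% of all 35116 promoter entries of the same length. The windows of CCL20, TNFRSF9, MAMLD1 and NR4A3 and the second window of CD83 lie wholly or partly within the gene's own annotated span, because other annotated transcripts start further upstream, and all but that of CD83 overlap an exon of the gene. GC content ran from 34.8% to 83.2% over the 10 entries and had a median of 58% over all promoters. Of the entries with an NF-κB match, those of CD83, GFPT2 and SDC4 had 83.2%, 76.8% and 73.6%. Those of TNFRSF9 and CCL20 had 51.6% and 46.8%. The share of all promoters was not matched for GC content. These windows of 30 bases show the match of each gene, read 5′ to 3′ on the gene's strand, with bases that belong to any NF-κB match in capitals:
CCL20, chr2:227813753-227813782, plus strand: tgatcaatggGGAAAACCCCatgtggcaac
TNFRSF9, chr1:7940893-7940922, minus strand: agctgtggtGGGAATTTCCCatgagacccc
SDC4, chr20:45348502-45348531, minus strand: cgcttccactGGGGAATTCCgggcggggtg
CD83, chr6:14117686-14117715, plus strand: gctgcccgccGGGGAATCCCCCgggctggc
GFPT2, chr5:180353400-180353429, minus strand: aggcgggcggGGGAAGCCCCgccccttccc
That of CD83 lies in the second of 2 promoter entries, which holds further matches. The match of GFPT2 overlaps a GC box (GGGCGG), and that of SDC4 borders one. GC boxes were found for 6 of the 8 genes and in 42.6% of all promoters. An AP-1 site (TGANTCA) was found for TNFRSF9 alone among the 8 (6.57% of all promoters), and the full CRE (TGACGTCA) for none of them (1.65%). The letters of a TATA box (TATAAA) were found for CCL20 and CD83 (10.7% of all promoters). They lay 29 to 24 bases before the start for CCL20. For CD83 they lay far upstream in the first entry, 243 to 238 and 236 to 231 bases before the start.

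The whole window of SDC4, the gene with the largest differences between later and earlier SCFA below, is shown with the NF-κB match in capitals, 97 to 88 bases before the start:
SDC4, chr20:45348425-45348674, minus strand: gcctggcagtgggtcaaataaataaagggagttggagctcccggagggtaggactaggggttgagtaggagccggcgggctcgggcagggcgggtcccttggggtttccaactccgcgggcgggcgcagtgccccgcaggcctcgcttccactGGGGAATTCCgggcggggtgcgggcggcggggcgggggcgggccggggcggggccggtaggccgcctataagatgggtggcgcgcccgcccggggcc
NR4A3 had no NF-κB match. After its sequence was seen, the shorter CRE core TGACGT was added to the search. It occurred 3 times in the window of NR4A3, against 3 or more times in 0.199% of all promoters and at least once in 7.10%. Core and count were both taken from this sequence, so these shares are a description only. The bases outside annotated exons, with 2 of the 3 cores in capitals, read:
NR4A3, chr9:99821635-99821854, plus strand: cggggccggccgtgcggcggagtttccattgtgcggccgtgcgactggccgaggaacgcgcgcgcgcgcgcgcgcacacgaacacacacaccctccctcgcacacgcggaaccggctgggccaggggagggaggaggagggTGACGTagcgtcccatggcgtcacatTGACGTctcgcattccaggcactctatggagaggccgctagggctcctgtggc
A match describes letters only, and binding was not measured.

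CCL20 (ENSG00000115009.11, chromosome 2, 227805739 to 227817564, plus strand) encodes the ligand of the receptor CCR6 and attracts lymphocytes and dendritic cells. It stood at 57.6 and 55.6 CPM in Ctrl and at 212 and 216 in TN. With SCFA before TNF-α it reached 890 and 936 CPM in PRTN and 944 and 1041 in BUTN. With SCFA afterwards it stood at 596 and 791 CPM in TNPR and at 685 and 749 in TNBU. Every SCFA library lay above both TN libraries, and both TN libraries above Ctrl. The mean in BUTN was 17.5 times that of Ctrl and 4.63 times that of TN, the largest such ratios to Ctrl among the 9 genes. TNPR and TNBU overlapped, and the gap between PRTN and BUTN was smaller than the sum of their SDs (32.2 and 69.0 CPM, n = 2 for each group).

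SDC4 (ENSG00000124145.6, chromosome 20, 45325288 to 45348424, minus strand) had the highest level per length of the 9 genes, at 488 CPM per kilobase of annotated exon in TN, where NR4A3 had 0.266. Its level was 665 and 676 CPM in Ctrl and 1214 and 1336 in TN. PRTN gave 3028 and 2899 CPM, and BUTN 3294 and 3453. In the later treatments it was 1694 and 2054 CPM in TNPR and 2171 and 2332 in TNBU. No groups overlapped, and the order was Ctrl, TN, TNPR, TNBU, PRTN and BUTN.

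TNFRSF9 (ENSG00000049249.8, chromosome 1, 7915871 to 7943165, minus strand) stood at 45.9 and 47.2 CPM in Ctrl and at 107 and 111 in TN. PRTN gave 171 and 176 CPM, BUTN 204 and 208, TNPR 150 and 151, and TNBU 178 and 155. The order of the groups was that of SDC4, with TNBU overlapping PRTN. CD83 (ENSG00000112149.9, chromosome 6, 14117256 to 14136918, plus strand) also followed this order, at 12.1 and 11.6 CPM in Ctrl and 17.5 and 20.8 in TN. PRTN gave 45.2 and 44.99 CPM and BUTN 50.02 and 51.1. With SCFA after TNF-α it stood at 32.4 and 38.1 CPM in TNPR and at 38.3 and 43.3 in TNBU. For CD83 no groups overlapped, although the gap between TNPR and TNBU was below the sum of their SDs (4.03 and 3.55 CPM, n = 2 for each group).

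**Figure D1:**
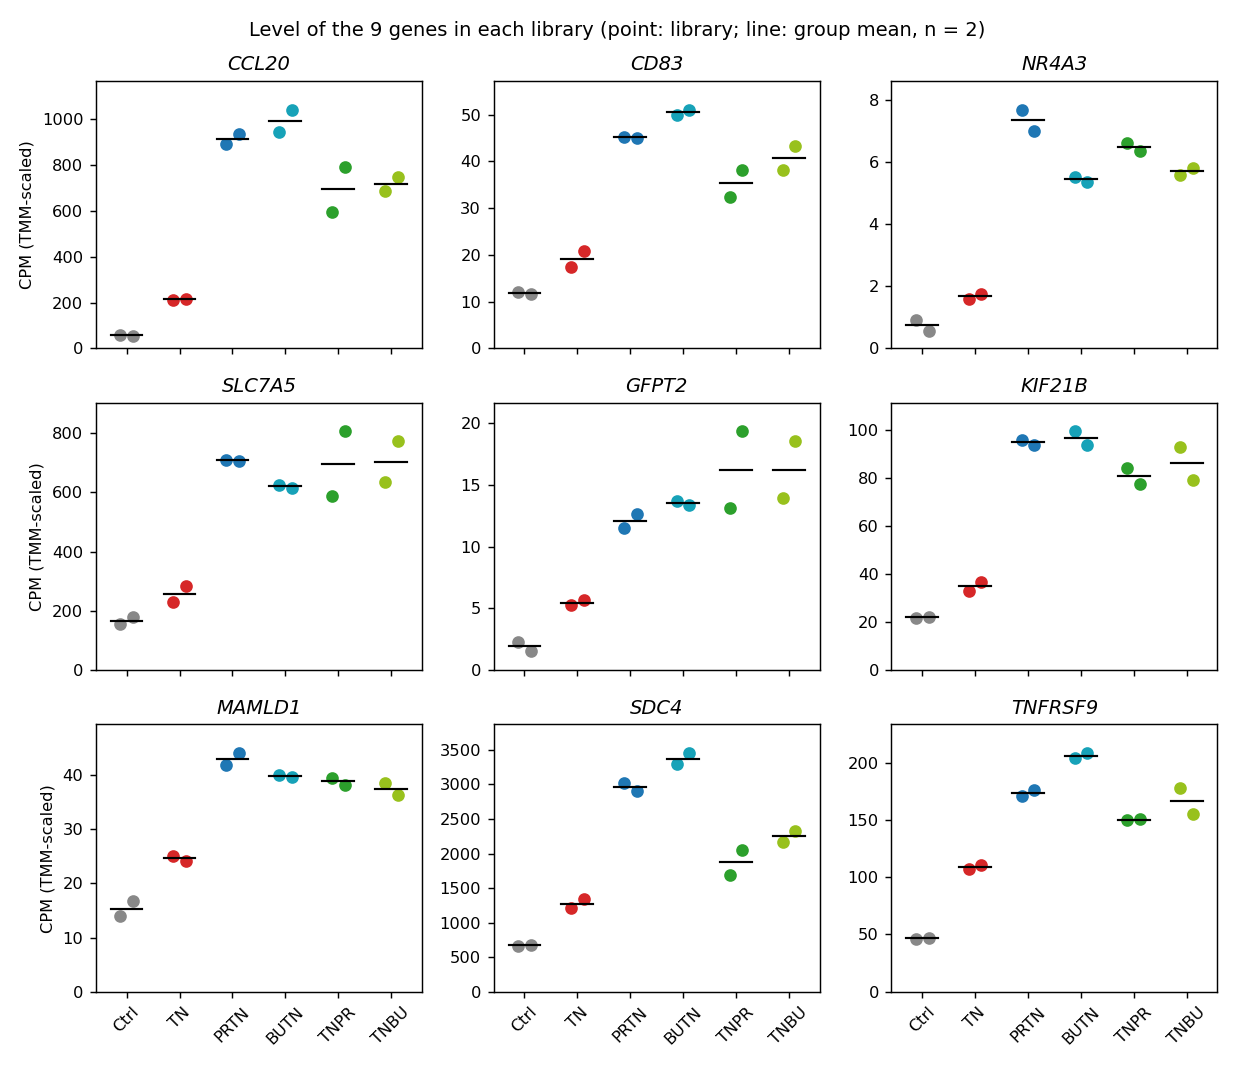
Level of each of the 9 genes (CPM scaled with TMM factors, linear axis from 0) in the 6 groups, where each point is a library and each line the mean of 2 libraries. In every panel the 8 SCFA libraries lie above both TN libraries, and for CCL20, CD83, SDC4, TNFRSF9, KIF21B and MAMLD1 the means of TNPR and TNBU lie below those of PRTN and BUTN.

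NR4A3 (ENSG00000119508.17, chromosome 9, 99821855 to 99866891, plus strand) was the least expressed member, with 27 and 16 counts in Ctrl and 43 and 49 in TN. On the scaled level this was 0.927 and 0.574 CPM in Ctrl and 1.60 and 1.76 in TN. PRTN gave 7.70 and 7.03 CPM, BUTN 5.54 and 5.37, TNPR 6.63 and 6.36, and TNBU 5.61 and 5.81. The groups did not overlap, and both propionate groups lay above both butyrate groups.

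SLC7A5 (ENSG00000103257.8, chromosome 16, 87830023 to 87869507, minus strand) stood at 155 and 179 CPM in Ctrl and at 230 and 285 in TN. It was at 710 and 707 CPM in PRTN and at 626 and 615 in BUTN. The TNPR libraries, at 588 and 806 CPM, lay on both sides of all PRTN and BUTN libraries, and the TNBU libraries, at 634 and 772, on both sides of PRTN. No neighbours in the order of the 4 SCFA groups differed beyond their spread. Reads of its near-identical copies SLC7A5P1 and SLC7A5P2 came to 0.0603% to 0.443% of its counts. GFPT2 (ENSG00000131459.12, chromosome 5, 180300698 to 180353336, minus strand) was at 2.30 and 1.58 CPM in Ctrl and 5.29 and 5.64 in TN. PRTN gave 11.5 and 12.6 CPM and BUTN 13.7 and 13.4. In TNPR it was at 13.1 and 19.3 CPM and in TNBU at 13.9 and 18.6, a wide spread that overlapped BUTN in TNPR. GFPT2 was the only member whose means were higher in both later treatments than in both earlier ones.

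KIF21B (ENSG00000116852.14, chromosome 1, 200969390 to 201023714, minus strand) ran from 21.7 and 22.3 CPM in Ctrl through 32.9 and 36.7 in TN to means of 80.6 ± 4.67 in TNPR and 86.0 ± 9.79 in TNBU (SD, n = 2 for each group). The means of the earlier treatments were 94.8 ± 1.45 CPM for PRTN and 96.4 ± 4.01 for BUTN. PRTN overlapped BUTN, TNPR overlapped TNBU, and the gap between TNBU and PRTN was below the sum of their SDs. MAMLD1 (ENSG00000013619.13, chromosome X, 150361422 to 150514178, plus strand) was at 13.9 and 16.7 CPM in Ctrl and 25.1 and 24.1 in TN, with means from 37.4 ± 1.60 in TNBU to 42.9 ± 1.56 in PRTN (SD, n = 2 in each). Its 4 SCFA groups stood at 2.44 to 2.80 times the mean of Ctrl, the lowest such ratios of the 9 genes beside TNPR of SDC4, also at 2.80.

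The values that chose the genes are given once from the limma-voom fit of all 12 libraries, in which calls needed both a difference beyond 1.5-fold and an adjusted p below 0.05. In TN vs Ctrl, 9 of the 9 genes were called up, beside 0.764% of all tested genes, a count that the choice of the genes fixed, with log2 fold changes from 0.62 (SE 0.15) for SLC7A5 to 1.92 (SE 0.13) for CCL20. Against TN, PRTN had 9 called up (23.9% of all genes), BUTN 9 (23.1%), TNPR 7 (24.9%) and TNBU 9 (25.0%). In the same order the 9 genes had median log2 fold changes of 1.24, 1.40, 1.21 and 1.30, where those of all genes were 0.09, 0.08, 0.12 and 0.09. The largest value was 2.21 (SE 0.11) for CCL20 in BUTN, followed by 2.12 (SE 0.18) for NR4A3 in PRTN. These comparisons share the TN libraries. TNPR and TNBU also differ from TN in time since TNF-α, which cannot be told apart from SCFA there.

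**Figure D2:**
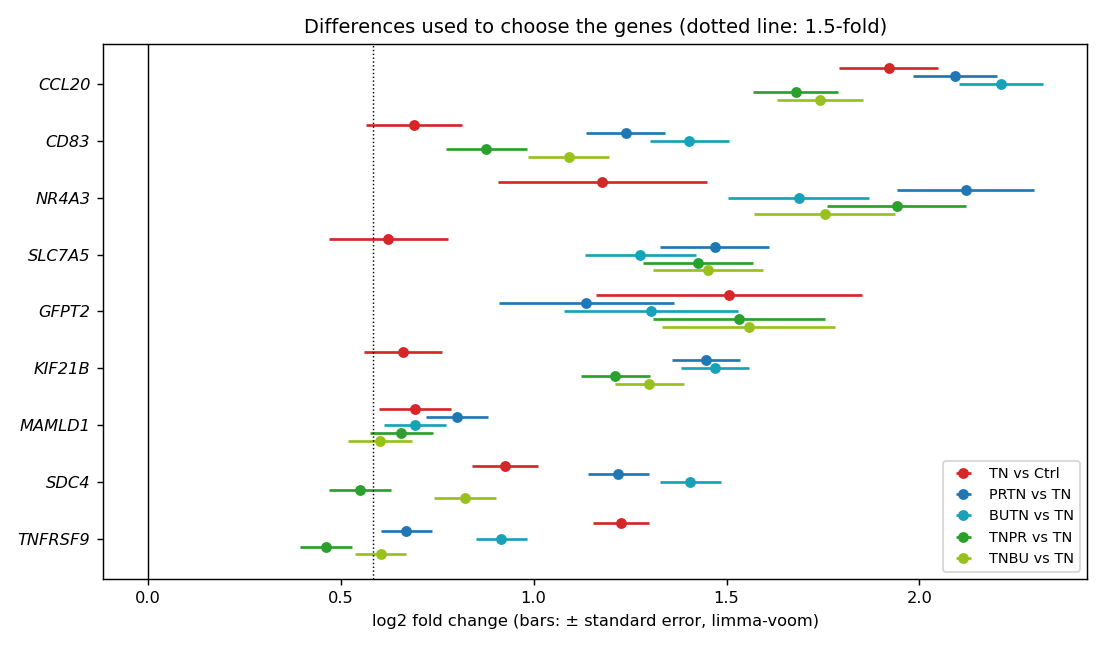
Log2 fold changes (horizontal axis) of TN against Ctrl and of each SCFA group against TN for the 9 genes, the differences that chose them; bars are ± 1 standard error and the dotted line marks 1.5-fold. All points lie above 0, and SDC4 and TNFRSF9 in TNPR lie left of the dotted line, at 0.55 and 0.46.

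The members just outside the threshold were SDC4 and TNFRSF9 in TNPR, at 1.46-fold and 1.38-fold over TN, and those just inside were MAMLD1 and TNFRSF9 in TNBU, each at 1.52-fold, and both lost the call without TNBU replicate 1. The calls in TN vs Ctrl depended on single libraries for several genes, while the log2 fold changes stayed above 0. Without Ctrl replicate 1, 4 of the 9 were still called up, without Ctrl replicate 2 there were 5, without TN replicate 1 there were 6 and without TN replicate 2 there were 4. NR4A3, SLC7A5 and GFPT2 lost the call each time, while CCL20, SDC4 and TNFRSF9 kept it each time. Over these fits the log2 fold change was 1.24 to 1.78 for GFPT2, 0.85 to 1.52 for NR4A3 and 0.47 to 0.78 for SLC7A5.

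The 7 genes called in all 5 of these comparisons belong to 14 such genes in the whole table. The others were CYP24A1, PLAT, STX11, SERPINE2, DUSP5, TAF4B and WNT10B. CYP24A1, which encodes the enzyme that inactivates vitamin D, stood at 40.9 ± 2.74 CPM in Ctrl, 64.3 in TN and 494 ± 1.67 in BUTN (mean, with SD for Ctrl and BUTN, n = 2 for each group). PLAT, the tissue plasminogen activator gene, stood at 8.26 ± 0.0288 CPM in Ctrl, 12.7 ± 1.58 in TN and 114 ± 1.43 in BUTN (SD, n = 2 for each group). Just outside, BIRC3, which encodes an inhibitor of apoptosis, had the calls of SDC4 and TNFRSF9, with log2 fold changes against TN of 1.22 (PRTN), 1.42 (BUTN), 0.50 (TNPR) and 0.70 (TNBU). CXCL5 and RP11-95M15.2 were called up in TN vs Ctrl and against TN in BUTN, TNPR and TNBU. In PRTN they were not called, at -0.12 and 0.47.

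SCFA after TNF-α was then set against SCFA before it, a contrast that the choice of genes did not name, although it used the levels of the same libraries. SDC4 was 1.59-fold lower in TNPR than in PRTN, with a log2 fold change of -0.67 (SE 0.08, limma-voom adjusted p = 0.00363), and was the only member called. It stood lower in both TNPR libraries than in both PRTN libraries. Over all genes, 0.107% were called lower and 0.160% in either direction. Over the alternatives the adjusted p ran from 6.96e-12 to 0.173. Without PRTN replicate 1 the adjusted p of SDC4 was 0.0873, and without TNPR replicate 1 its log2 fold change was -0.54, below the fold threshold. Without TNPR replicate 2, CCL20 was called as well, at -0.62 with an adjusted p of 0.0107 (0.0107 to 0.596 over the alternatives).

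For butyrate, 0 of the 9 genes were called in TNBU vs BUTN, where 0.267% of all genes were. SDC4 had a log2 fold change of -0.58 (SE 0.08, limma-voom adjusted p = 0.00613), a 1.499-fold difference that came just short of the fold threshold. DESeq2 placed it at -0.59 with an adjusted p of 3.62e-09 and called it, and over all alternatives the adjusted p ran from 3.62e-09 to 0.103. Without TNBU replicate 2 it was called too, at -0.64. TNFRSF9 differed by -0.31 (SE 0.06, adjusted p = 0.0476) and CCL20 by -0.47 (SE 0.10, adjusted p = 0.0572), neither beyond 1.5-fold. Over the alternatives the adjusted p ran from 0.00255 to 0.373 for TNFRSF9 and from 0.000794 to 0.358 for CCL20. At an unadjusted p under 0.05 there were 4 members by limma-voom (14.4% of all genes), 4 by edgeR (13.3%) and 4 by DESeq2 (8.31%). In TNPR vs PRTN there were 6 (11.2%), 6 (10.1%) and 5 (5.99%).

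CD83 was at -0.36 (95% interval -0.56 to -0.16) in TNPR vs PRTN and at -0.31 (-0.51 to -0.11) in TNBU vs BUTN, with adjusted p of 0.174 and 0.151 from limma-voom. SLC7A5 was at -0.04 (-0.33 to 0.25) and 0.17 (-0.12 to 0.47), and NR4A3 at -0.18 (-0.43 to 0.07) and 0.07 (-0.21 to 0.34). GFPT2 was the only member above 0 in both, at 0.40 (0.02 to 0.77) and 0.25 (-0.12 to 0.63), and did not pass the test. The medians of the 9 genes were -0.21 and -0.17, against 0.00 and -0.01 over all genes. The difference between the timing effects of propionate and butyrate was called for 0 members and 0 of all genes, and at an unadjusted p under 0.05 for 0 members by limma-voom, edgeR or DESeq2. It lay between -0.25 (-0.62 to 0.13) for NR4A3 and 0.14 (-0.39 to 0.67) for GFPT2. Time since TNF-α also differs between the groups, so timing of SCFA and time since TNF-α cannot be told apart.

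**Figure D3:**
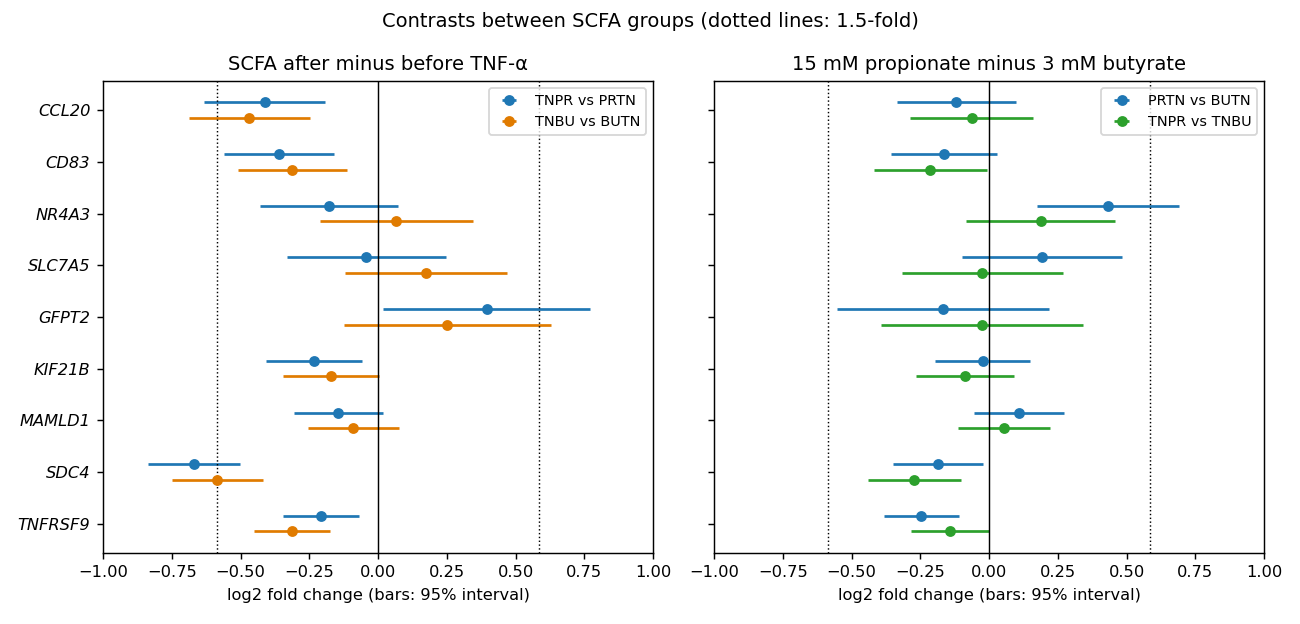
Log2 fold changes (horizontal axes) of SCFA after against before TNF-α on the left and of 15 mM propionate against 3 mM butyrate on the right, for the 9 genes; bars are 95% intervals and dotted lines mark 1.5-fold in either direction. SDC4 lies farthest to the left in the left panel, at -0.67 for propionate and -0.58 for butyrate, and in the right panel all points lie within the dotted lines.

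Propionate and butyrate, which differ by the length of the carbon chain, were given at different doses, so compound and dose cannot be told apart. As groups, PRTN and BUTN differed by more than the threshold in 0 of the 9 genes, where 0.168% of all genes were called. For TNPR and TNBU the counts were 0 of 9 and 0.00822%. Picking genes that stood above TN with both SCFAs may favour such low counts. At an unadjusted p under 0.05 in PRTN vs BUTN, limma-voom gave 3 members (and 3418 of the 24342 genes tested), edgeR 3 (12.8% of all genes) and DESeq2 2 (7.95%). In TNPR vs TNBU they gave 3 (8.61%), 2 (7.78%) and 2 (3.98%). NR4A3 was highest for propionate, by 0.43 in PRTN vs BUTN (95% interval 0.17 to 0.69, limma-voom adjusted p = 0.125) and 0.19 in TNPR vs TNBU (-0.08 to 0.46, adjusted p = 0.705). On the butyrate side, TNFRSF9 was at -0.25 in PRTN vs BUTN (-0.38 to -0.11, limma-voom adjusted p = 0.1). SDC4 was at -0.27 in TNPR vs TNBU (-0.44 to -0.10, limma-voom adjusted p = 0.379). In PRTN vs BUTN the lowest adjusted p of an alternative fit was 0.0027 for SLC7A5, 0.00528 for TNFRSF9, 0.00821 for SDC4 and 0.0364 for NR4A3. For the other members it stayed above 0.05, and no member passed 1.5-fold in any fit. The intervals of the 9 genes in both comparisons together ran from -0.55 to 0.69.

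A list of 28 NF-κB target genes was read beside these values. It was chosen with earlier results of these data known and holds none of the 9 chosen genes. Several listed genes are ones that the paper names as lowered by SCFAs in this cell line. Among them are CSF2, CCL2, CXCL8, IL6 and VCAM1. The opposite directions against TN therefore follow in part from how both sets were drawn, and are given as a description. In TN vs Ctrl 22 of the 28 were called up, beside 0.764% of all genes. Against TN, PRTN had 17 called lower and 2 higher, BUTN 15 and 4, TNPR 19 and 0, and TNBU 18 and 1, with median log2 fold changes of -0.96, -0.61, -1.58 and -1.42. Of all genes, 16.7%, 14.8%, 16.9% and 16.5% were called lower in these comparisons, and 23.9%, 23.1%, 24.9% and 25.0% higher. In PRTN vs TN the lowest were CSF2, which encodes the growth factor GM-CSF, at -5.75 (SE 0.36) and the adhesion molecule VCAM1 at -5.50 (SE 0.47), which was near the counting floor in PRTN at a mean of 0.180 CPM. The highest were PTGS2, the inducible cyclooxygenase gene, at 1.22 (SE 0.52, not called) and BIRC3 at 1.22 (SE 0.08, called). PTGS2 was low throughout, with at most 22 counts in a library. In the later against the earlier treatment, 5 of the 28 fell in TNPR vs PRTN and 9 in TNBU vs BUTN, where 0.107% and 0.173% of all genes did. Among them were BIRC3 at -0.72 in each and ICAM1, a leukocyte adhesion molecule, at -1.003 and -1.112. None of the 28 rose in either.

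**Figure D4:**
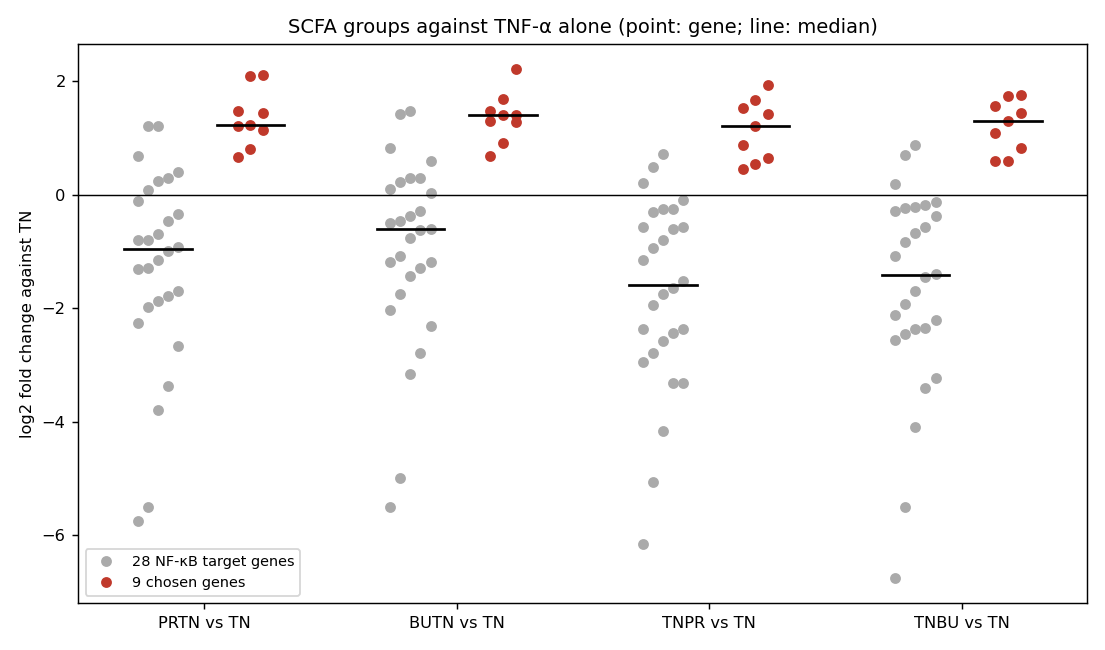
Log2 fold change against TN (vertical axis) of 28 NF-κB target genes (grey) and of the 9 chosen genes (red) in the 4 SCFA groups; each point is a gene and each line a median. The medians of the target genes lie from -1.58 to -0.61, while the 9 genes, chosen for this direction, all lie above 0. The target list was also chosen with earlier results of these data known.

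Partners and paralogs of the 9 genes were read from a list of 29, of which 28 were tested. In TN vs Ctrl, 2 were called up (TRAF1 and MAML2). Against TN, PRTN had 7 called higher and 6 lower, BUTN 7 and 3, TNPR 8 and 6, and TNBU 7 and 4. Of all genes, 23.9%, 23.1%, 24.9% and 25.0% were called higher and 16.7%, 14.8%, 16.9% and 16.5% lower, so the share called higher, at 7 or 8 of 28, was near that of all genes. The ligand of TNFRSF9, TNFSF9, was at 27.7 ± 2.88 CPM in TN and 87.3 ± 6.97 in PRTN (SD, n = 2 for each group), and rose in all 4 SCFA groups by 1.21 to 1.66 on the log2 scale, while TN vs Ctrl gave 0.22 (SE 0.13, limma-voom adjusted p = 0.419). CCR6, the receptor of CCL20, had 0 counts in every library, which allows up to 3 counts per library.

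Members of the same family did not share one pattern. NR4A2 rose against TN in all 4 SCFA groups, by 2.14 to 2.72 on the log2 scale, but was at -0.25 (SE 0.30, limma-voom adjusted p = 0.762) in TN vs Ctrl, where NR4A3 had 1.18. NR4A1 was called higher in PRTN, BUTN and TNPR, at 2.94, 2.27 and 1.93, and its SE of 0.62 to 0.66 was wide. Of the syndecans, SDC3 rose by 0.67 to 0.96 in the 4 groups, SDC1 was at -0.79 to -0.50 and called lower in all but BUTN, and SDCBP, the syndecan-binding adaptor, was called lower in all 4 groups, at -1.002 to -0.86. SLC3A2, the heavy chain that pairs with SLC7A5, was at 0.32 to 0.51 against TN, under the fold threshold in each group. GFPT1, the paralog of GFPT2, was at -0.27 to -0.12 and not called. UAP1, a later enzyme of the hexosamine pathway, was called higher in TNPR (0.85) and TNBU (0.87) and stood at 0.58 in PRTN and 0.49 in BUTN. KIF21A, the paralog of KIF21B, was at -0.82 to -0.57 and called lower in all but BUTN.

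Since CD83, TNFRSF9 and CCL20 are best known from immune cells, markers of other cells were read in the same libraries. Of 12 macrophage and dendritic cell markers all 12 exceeded 3 counts in at least 1 library, with a summed level of 34.8 to 40.4 CPM in Ctrl and TN, 38.4 to 39.1 for PRTN, 55.8 to 57.3 for BUTN, 41.9 to 47.0 for TNPR and 58.9 to 66.3 for TNBU, with CD68 the marker with the highest counts. Of 12 lymphocyte markers 7 did, with sums of 1.38 to 1.79 CPM in Ctrl and TN and 8.80 to 13.9 in the SCFA groups. PTPRC reached at most 5 counts in a library, CD163 4, CD3E 2 and MS4A1 0, whereas LCK reached 276, CD79B 151, CD14 122 and ITGAX 395. Against TN in PRTN, 8 of the 10 tested macrophage and dendritic cell markers and 5 of the 7 tested lymphocyte markers were called higher, and none lower. The sums of 4 endothelial markers (0.143 to 0.287 CPM in Ctrl and TN, 2.21 to 3.64 with SCFA) and of 4 fibroblast markers (10.4 to 13.1 and 37.0 to 67.2 CPM) were also higher with SCFA, while the 16 epithelial markers summed to 2236 to 2357 CPM without SCFA and 2273 to 2887 with it. Single epithelial markers went both ways, with 9 called higher and 5 lower in PRTN vs TN, such as KRT19 at 4.36 and PAX8 at -1.35. The part of these differences in the results above was not tested.

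Genes whose log2 CPM over the 12 libraries was most like that of a member were sought among 14983 others with a mean of at least 1 CPM. KIF21B was most like VDR, the vitamin D receptor gene (Pearson r = 0.997), SDC4 most like BIRC3 (r = 0.987), and CD83 was among the 3 nearest of both CCL20 (r = 0.986) and SDC4 (r = 0.984). RNF24 was among the 3 nearest of CCL20 (r = 0.987), MAMLD1 (r = 0.991) and TNFRSF9 (r = 0.989). Between the members themselves r ran from 0.888, for GFPT2 and SDC4, to 0.986. These values describe 6 groups of 2 libraries that all genes share, and the choice of genes by their group pattern raises them.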

How the data were processed

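The authors prepared stranded mRNA libraries, aligned reads to GRCh38 with STAR (2.6.1a, per the labels) and counted genes of GENCODE v26 with RSEM. The RSEM version and strand setting are not given in the sources used here. The deposited values are expected counts, unscaled, unfiltered and not pooled (19.3% are not whole numbers). They were analysed unrounded with limma 3.58.1 (voom) and TMM factors from edgeR 4.0.16 in R 4.3.3. Genes with a geometric mean of the count plus 1, minus 1, under 1 were removed (33936 genes). A mean per group was fitted to all 12 libraries and p-values were adjusted by the Benjamini-Hochberg method over 24342 genes. edgeR and DESeq2 1.42.0 used rounded counts. All 3 tools were run on data simulated for PRTN vs BUTN alone. That run does not cover the contrasts with TNPR and TNBU, whose replicates differed more.

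The members and lists were chosen with earlier results of these data known. Named genes were the members, genes sharing all or most of their calls, the listed partners, the extreme NF-κB targets and the 3 nearest genes by correlation. Positions are from GENCODE v44 (GRCh38), levels per length use the union of its exons, and promoters are from RefSeq (GRCh38.p14). Same-numbered libraries were not treated as pairs. Their deviations correlated at -0.0334 to 0.0670 over all tested genes, which does not exclude a shared batch. Other scalings, filters, sets of libraries, a replicate block and leaving out each library were the alternatives. Intervals cover the fitted spread, and floors counting error only.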

Additional observations from a re-analysis of the deposited data

How the results depend on the processing

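As a description that the choice of the genes fixed, 7 of the 9 were called up in TN vs Ctrl and in all 4 SCFA groups against TN. This count was 4 without the filter on low counts and 1 with only the libraries of the groups compared, and ran from 2 to 7 when each library was left out. With library size alone as scaling, which shifted the median of all genes against TN to 0.232 to 0.291 on the log2 scale, SDC4 and TNFRSF9 were called up in TNPR and SLC7A5 lost its call in TN vs Ctrl. All genes called up in TN vs Ctrl fell from 186 to 79 with only those groups in the fit.

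In TNPR vs PRTN the single member called, SDC4, became 0 with only those groups in the fit (adjusted p = 0.173, with fewer samples) and 0 to 2 members were called with a library left out. In TNBU vs BUTN, 0 members became 1 with DESeq2, with RLE size factors and without the filter, and 0 to 1 with a library left out, SDC4 each time. In PRTN vs BUTN, TNPR vs TNBU and the difference of timing effects the number stayed at 0 in all alternatives. All genes called in PRTN vs BUTN were 41, and 75 without the filter, 178 with only those groups, 27 with the replicate block and 3 to 20 with a library left out. In TNPR vs TNBU they were 2, and 9 with DESeq2, 13 without the filter, 0 with only those groups and 2 to 4. In TNPR vs PRTN they were 39, and 25 with edgeR, 7 with only those groups and 7 to 74. In TNBU vs BUTN they were 65, and 4 with only those groups and 10 to 308. In the difference of timing effects they were 0, and 1 with edgeR, 5 with DESeq2, 1 without the filter and 0 to 9. The cause was not tested. The replicate block changed no call of a member, and the labels do not say whether same-numbered libraries belong together.

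Signs turned only for uncalled values and only when a library was left out. The ranges were -0.0664 to 0.0197 for KIF21B in PRTN vs BUTN. In TNPR vs TNBU they were -0.27 to 0.13 for CCL20, -0.25 to 0.19 for SLC7A5, -0.30 to 0.25 for GFPT2 and -0.21 to 0.0129 for KIF21B. In TNPR vs PRTN SLC7A5 ran from -0.27 to 0.18. In the difference of timing effects the ranges were -0.15 to 0.26 for CCL20, -0.16 to 0.0701 for CD83, -0.44 to 0.0137 for SLC7A5, -0.13 to 0.43 for GFPT2, -0.18 to 0.0510 for KIF21B and -0.22 to 0.0569 for SDC4. The number of libraries, 2 per group, limits the precision of every value.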
